A study of Rattus norvegicus with 60 samples.

Results

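The 80 genes described here encode the nuclear-coded subunits of the respiratory chain and of ATP synthase, with a few of their close partners, in the spinal cord of rats with a spinal cord injury (SCI) or a sham operation. They were all the genes whose single symbol in the array's annotation begins with Nduf followed by a, b, c, s or v, with Cox4 to Cox8, with Uqcr or with Atp5, or is one of Sdha, Sdhb, Sdhc and Sdhd. They made up 80 of 14324 genes measured, on 91 probe sets, and the probe sets of the 10 genes that had several were averaged. Complex I had 32 of these genes (6 core and 26 accessory subunits), complex II had 4, complex III had 7, complex IV had 15 and ATP synthase, or complex V, had 15, which gives 73 subunits. The other 7 were the assembly factors Ndufaf1, Ndufaf3 and Ndufaf4, the supercomplex factor Cox7a2l, the ATP synthase inhibitor Atp5if1 and the annotated pseudogenes Cox6c-ps1 and Ndufs6-ps1. All 80 passed the filter on noisy probe sets, as did nearly all probe sets (27338 of 27342). One further row, which carries both Ndufa10 and Ndufa10l1 as symbols, was left out, and the mitochondrially encoded subunits were not analysed here.

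The inner mitochondrial membrane carries this machinery. Complexes I and II pass electrons from NADH and from succinate to ubiquinone, complex III passes them on to cytochrome c and complex IV to oxygen, and ATP synthase uses the proton gradient that complexes I, III and IV build to make ATP. Complex II is also the succinate dehydrogenase of the tricarboxylic acid (TCA) cycle. Neurons of the spinal cord rely heavily on this route to fuel ion pumps and synapses.

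RNA was measured in 60 female Long Evans rats by microarray (Rat Gene 1.0 ST), each rat on an array of its own and 2 rats for every group and time. The groups were SCI-MP (contused cord, methylprednisolone, MP, at 30 mg/kg in ethanol), SCI-EtOH (contused cord, 70% ethanol alone), S-MP (sham operation, MP in ethanol) and S-EtOH (sham operation, ethanol alone). All rats thus had surgery at the thoracic spine and intravenous ethanol, the contusion was made by a dropped weight, and the tissue was the short lesioned segment with all its cell types, so that fewer cells of a type and less RNA per cell cannot be told apart. Rats were taken at 7 times after the medication (2, 4, 6 and 8 h, then 12, 24 and 48 h), and SCI-EtOH and S-EtOH rats also at 0 h, while no MP rats were taken at 0 h.

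The deposited values are log2 values that lie near 0 for each probe set, so a difference of 1 is a factor of 2, the values hold no level above background, and levels of different genes cannot be set against each other. Array medians lay between -0.03 and 0.11, and the 2 rats of a group were least alike in SCI-EtOH at 6 h, where their values correlated at r = 0.161. Centred values cannot show whether a cell type was present. The mean of 13 neuron markers, as a check of the labelled tissue, ran from -2.22 to -0.13 in SCI-MP and from -2.16 to -0.35 in SCI-EtOH, against 0.05 to 0.50 in S-MP and 0.11 to 0.41 in S-EtOH, with no overlap of injured and sham arrays. Differences are injured minus sham or MP minus ethanol, and ± is the standard error (SE) of the fit over 14 arrays in each group.

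In rats given ethanol alone, injury was accompanied by lower values of most of these genes. Averaged over 2 to 48 h, 42 of the 80 genes were lower and 14 higher in SCI-EtOH than S-EtOH (limma, adjusted p under 0.05 over all genes), beside 62.7% of all genes called in either direction, 27.5% lower and 35.1% higher. The median difference of the 80 genes was -0.21, against 0.04 over all genes. In rats given MP, 59 were lower and 5 higher in SCI-MP than in S-MP, beside 55% of all genes called, 33.3% lower and 21.7% higher, with a median of -0.28 against 0.00 over all genes. After quantile normalization 41 were lower and 14 higher with ethanol (beside 26.6% and 32.2% of all genes). With MP 45 were then lower and 5 higher (beside 31% and 25.1%). The comparison with ethanol and that with MP share no arrays. Of the genes lower in each, 37 were lower in both, which is 88.1% of the 42 and 62.7% of the 59, beside 80.7% and 66.8% of the genes lower in these comparisons over all genes. Higher in both were 3, while 6 were higher in SCI-EtOH than S-EtOH but lower in SCI-MP than S-MP, and Atp5f1e alone ran the other way.

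**Figure D1:**
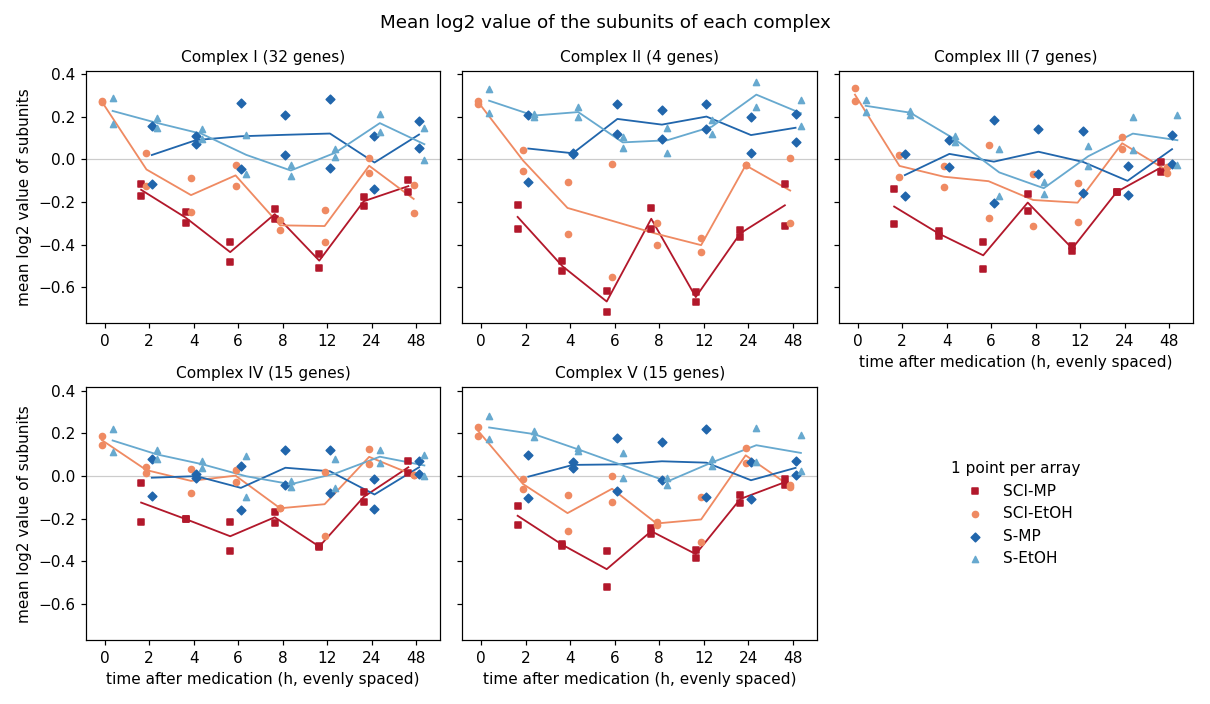
Mean log2 value of the measured subunits of each complex (vertical axis) in each array, by time after medication (horizontal axis, evenly spaced times in h); points are arrays, lines join group means. In complexes I and II the means of both injured groups lie below those of both sham groups at all 7 times after 0 h, and in complex II the SCI-MP arrays lie between -0.72 and -0.12.

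The mean over the 73 subunits gave a simple order of the groups. In SCI-MP its lowest, median and highest array after 0 h were -0.48, -0.24 and -0.04. In SCI-EtOH they were -0.34, -0.11 and 0.06. In S-MP they were -0.13, 0.05 and 0.22, and in S-EtOH -0.07, 0.10 and 0.20. The ranges of SCI-MP and SCI-EtOH overlap, as do those of the 2 sham groups, and the upper end of each injured group reaches into the sham groups.

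The core subunits of complex I, which carry the flavin and the iron-sulfur clusters that take electrons from NADH, were lower as a group. All 6 measured core subunits were lower in SCI-MP than in S-MP (median -0.58), and 5 of 6 were lower in SCI-EtOH than in S-EtOH (median -0.40). Over all genes 33.3% and 27.5% were lower in these comparisons. Ndufs1, the large iron-sulfur subunit of the NADH-oxidising arm, had a lowest, median and highest value of -1.07, -0.81 and -0.23 in SCI-MP and -1.52, -0.77 and -0.26 in SCI-EtOH, against -0.52, 0.23 and 0.39 in S-MP and -0.09, 0.10 and 0.25 in S-EtOH. No SCI-EtOH array reached the range of S-EtOH, whereas 1 low S-MP array at 2 h overlapped with SCI-MP. The difference was -0.88 ± 0.09 (SE, adjusted p = 5.8e-11) in rats given MP and -0.91 ± 0.09 (adjusted p = 2.5e-11) in rats given ethanol.

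Ndufv1, which binds NADH and flavin, lay between -0.79 and -0.21 in SCI-MP (median -0.36), against -0.13 to 0.44 in S-MP (median 0.25), and these groups did not overlap. Its difference was -0.69 ± 0.05 with MP and -0.35 ± 0.05 with ethanol. Ndufv2, its iron-sulfur partner, lay between -0.54 and -0.06 in SCI-MP and between -1.11 and -0.15 in SCI-EtOH, against -0.02 to 0.53 in S-MP and -0.13 to 0.44 in S-EtOH. Here the drop was -0.51 with MP and -0.78 with ethanol, with no overlap in either comparison. Ndufs8, an iron-sulfur subunit on the path to ubiquinone, was the core subunit that did not pass in SCI-EtOH against S-EtOH (-0.04), and it was lower in SCI-MP against S-MP (-0.39). With the 0 h difference subtracted, its value with ethanol was -0.45 (limma, adjusted p = 0.048).

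The accessory subunits of complex I, which surround the core, were mostly lower, with a few higher. Of 26, 21 were lower and 1 higher in SCI-MP than in S-MP (median -0.30), and 15 were lower and 5 higher in SCI-EtOH than S-EtOH (median -0.23). Over all genes 33.3% were lower and 21.7% higher with MP, and 27.5% and 35.1% with ethanol, so that the higher counts lay below those shares. The 5 that were higher in SCI-EtOH were Ndufa1, Ndufa2, Ndufa11, Ndufb3 and Ndufb7, of which Ndufa2 (-0.14), Ndufa11 (-0.15) and Ndufb3 (-0.12) turned negative with the 0 h difference subtracted and 0 of the 5 then passed. Ndufa1, a small membrane-bound subunit, had a lowest, median and highest value of -0.17, 0.04 and 0.47 in SCI-MP and 0.13, 0.45 and 0.98 in SCI-EtOH, against -0.62, -0.19 and 0.10 in S-MP and -0.49, -0.19 and -0.09 in S-EtOH. All SCI-EtOH arrays lay above all S-EtOH arrays, and the difference was 0.69 ± 0.06 (adjusted p = 6.1e-12), against 0.25 ± 0.06 with MP (adjusted p = 5.9e-04). Ndufb6, a subunit of the membrane arm, went the other way, at -0.90 ± 0.11 with ethanol and -0.36 ± 0.11 with MP.

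All 4 subunits of complex II were lower in SCI-MP than in S-MP, beside 33.3% of all genes, with a median of -0.51. Sdha, the flavoprotein that oxidises succinate, had a lowest, median and highest value of -0.66, -0.43 and 0.05 in SCI-MP and -0.93, -0.49 and -0.26 in SCI-EtOH, against 0.21, 0.41 and 0.64 in S-MP and 0.17, 0.31 and 0.53 in S-EtOH. Every injured array lay below every sham array. The difference was -0.78 ± 0.05 with MP (adjusted p = 2.9e-15) and -0.84 ± 0.05 with ethanol (adjusted p = 6.2e-16).

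Sdhb, the iron-sulfur subunit, was lower by a larger amount with MP, at -0.59 ± 0.06 against -0.25 ± 0.06 with ethanol (difference of the differences -0.34 ± 0.08, adjusted p = 0.0020). Sdhc, a membrane anchor with a share in the ubiquinone site, was lower by similar amounts, at -0.39 ± 0.05 and -0.41 ± 0.05. The other anchor, Sdhd, was lower with MP (-0.42 ± 0.07) and did not pass with ethanol (-0.04 ± 0.07, adjusted p = 0.60). With the 0 h difference subtracted, its value with ethanol was -0.33 (limma, adjusted p = 0.31).

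**Figure D2:**
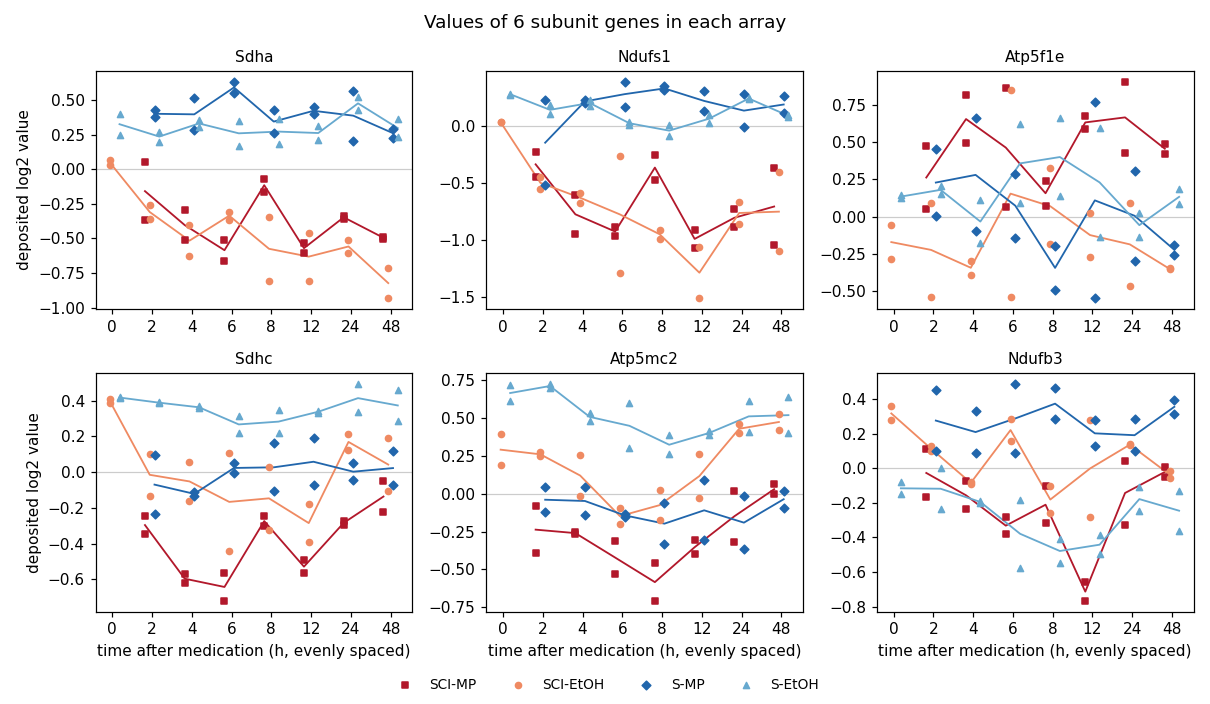
Deposited log2 value (vertical axis) of 6 subunit genes in each array by time after medication (horizontal axis, evenly spaced times in h); points are arrays and lines join group means. After 0 h, Sdha is lower in every injured array than in every sham array, Sdhc and Atp5mc2 are below S-EtOH in every S-MP array, and Ndufb3 is above S-EtOH in every S-MP array.

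Complex III, which hands electrons to cytochrome c, had 4 of 7 subunits lower in SCI-MP than in S-MP (median -0.27), and 3 lower and 1 higher in SCI-EtOH than S-EtOH (median -0.12). Over all genes 33.3% were lower and 21.7% higher with MP, and 27.5% and 35.1% with ethanol. Uqcrc2, a core protein of the matrix side, was lower in both, at -0.48 ± 0.07 and -0.52 ± 0.07. Uqcrb, which helps to form the ubiquinone site, was lower with ethanol (-0.55 ± 0.08) and did not pass with MP (-0.15 ± 0.08, adjusted p = 0.089). Uqcr11, the smallest subunit, was higher with ethanol (0.36 ± 0.07) and lower with MP (-0.28 ± 0.07). Its difference with ethanol was 0.48 at 0 h, and with that subtracted it stood at -0.12 (adjusted p = 0.79).

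Of 15 subunits of complex IV, cytochrome c oxidase, 8 were lower and 2 higher in SCI-MP than in S-MP (median -0.22), beside 33.3% and 21.7% of all genes. In SCI-EtOH against S-EtOH 5 were lower and 5 higher (median 0.02), near the shares of all genes (27.5% and 35.1%). Ndufa4, first assigned to complex I and now to complex IV, lay between -0.91 and -0.19 in SCI-EtOH (median -0.47), against 0.20 to 0.44 in S-EtOH (median 0.30), with no overlap. It was lower, at -0.83 ± 0.05 with ethanol and -0.46 ± 0.05 with MP. Cox7b was lower at -0.58 ± 0.10 with ethanol and -0.26 ± 0.10 with MP.

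Some subunits of complex IV have isoforms that mark tissues or conditions. Cox4i2, an isoform linked to low oxygen, was higher in both injured groups (0.14 ± 0.06 with MP and 0.22 ± 0.06 with ethanol), while Cox4i1, the common isoform, was lower with MP (-0.24 ± 0.06) and did not pass with ethanol (0.02). The call of Cox4i2 with MP, at an adjusted p of 0.046, was lost when any of 17 single arrays was left out (adjusted p up to 0.102). Cox6b2, known from testis, was higher at 0.24 ± 0.06 with MP and 0.47 ± 0.06 with ethanol. Cox6a2, the muscle form, did not pass in either, with -0.00 and 0.04, and Cox6a1, the common form, was lower in both (-0.45 and -0.20). Cox8b, another muscle form, was higher with ethanol (0.17) and Cox8a, its common partner, was lower in both (-0.43 and -0.23). Cox7a2 was lower with MP (-0.22) and stood at 0.03 with ethanol.

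In ATP synthase, 12 of 15 subunits were lower and 1 higher in SCI-MP than in S-MP (median -0.29), and 9 were lower and 2 higher in SCI-EtOH than S-EtOH (median -0.21). Over all genes 33.3% were lower and 21.7% higher with MP, and 27.5% and 35.1% with ethanol. The F1 part, which holds the catalytic head and the central stalk, had all 5 measured subunits lower with ethanol (median -0.36), and with MP 4 lower and 1 higher (median -0.57). Atp5f1a, the alpha subunit of the head, lay between -0.87 and 0.05 in SCI-MP and between -0.78 and -0.10 in SCI-EtOH, against 0.01 to 0.50 in S-MP and 0.13 to 0.37 in S-EtOH. Its difference was -0.67 ± 0.06 with MP, where the groups overlapped slightly, and -0.65 ± 0.06 with ethanol, where they did not.

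Atp5f1b, the catalytic beta subunit, did not overlap between injured and sham in either comparison, with -0.57 ± 0.04 and -0.36 ± 0.04. Atp5f1e, the small epsilon subunit of the central stalk, was the exception: it was higher with MP (0.45 ± 0.14, adjusted p = 0.0050) and lower with ethanol (-0.32 ± 0.14, adjusted p = 0.042), and its arrays were widely spread, from 0.05 to 0.91 in SCI-MP and from -0.54 to 0.85 in SCI-EtOH, against -0.55 to 0.77 in S-MP and -0.18 to 0.66 in S-EtOH. Atp5me, a small membrane subunit, was higher with ethanol (0.47 ± 0.09) and lower with MP (-0.29 ± 0.09). It differed by 0.50 at 0 h, and with that subtracted the value with ethanol was -0.029 (adjusted p = 0.96).

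Of the 80 genes, 7 had all 14 SCI-EtOH arrays below all 14 S-EtOH arrays (Sdha, Sdhc, Atp5f1a, Atp5f1b, Ndufa4, Ndufs1 and Ndufv2), where 3.55% of all genes did, and Ndufa1 alone lay wholly above, where 1.08% did. In SCI-MP against S-MP, 5 lay wholly below (Sdha, Ndufv1, Atp5f1b, Ndufs7 and Ndufv2), beside 5.12% of all genes, and 0 wholly above, beside 0.314%. In SCI-MP against SCI-EtOH 0 lay wholly below or above, beside 0.0698% and 0.0489%.

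**Figure D3:**
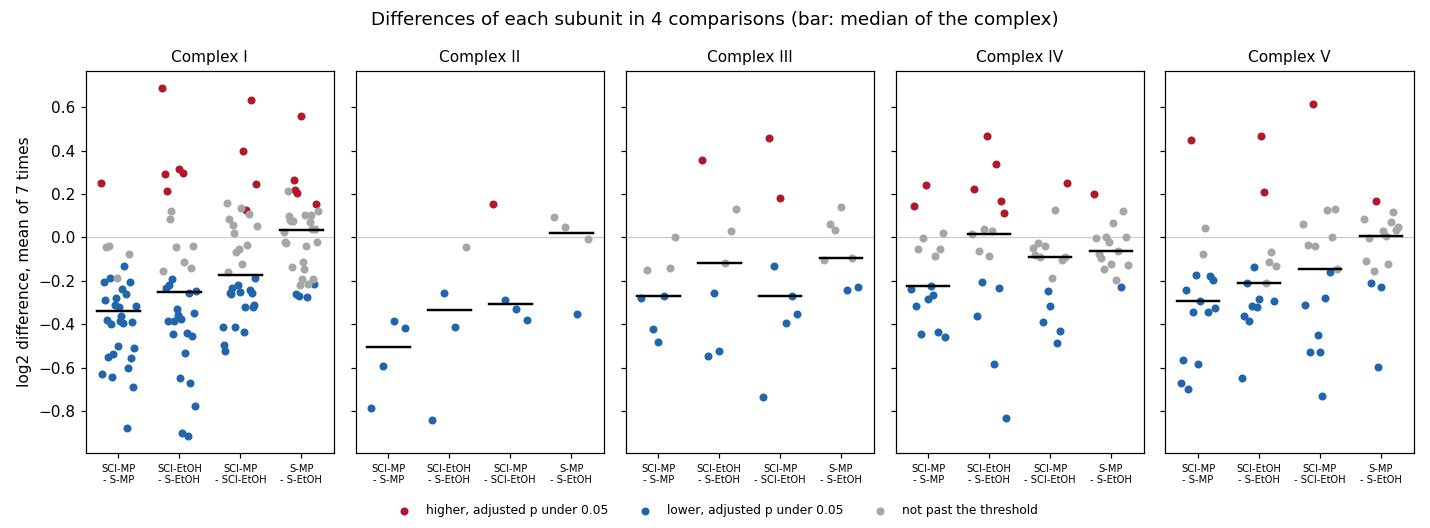
Log2 difference of each measured subunit, averaged over 7 times (vertical axis), in 4 comparisons (horizontal axis) for complexes I to V; red and blue points passed the test in the higher and lower direction, grey ones did not, and the black bar is the median of the complex. The medians of SCI-MP minus S-MP lie between -0.51 in complex II and -0.22 in complex IV.

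The starts of these genes were searched in the RefSeq promoters of the build GRCr8, which hold 250 bases before to 50 bases after each start, for 70 of the 80 genes that matched. Motifs were sought on both strands as exact letters. The site of the nuclear respiratory factor NRF1, spelled GCGCA, any base and GCGC, was in 14 of 70 (20%), against 7.38% of the promoters of measured genes and 4.71% of all promoters. AAGATGGC, the site of YY1, was in 13 (18.6%, against 4.27% and 3.44%), and CCGGAAGT, a site of GABPA and other ETS factors, was in 7 (10%, against 5.91% and 4.01%). GGGCGG of SP1 was in 31 (44.3%, against 50.2% and 34.9%), TCAAGGTCA of ERR alpha in 2 (2.86%, against 0.237% and 0.412%), and the site of the glucocorticoid receptor, spelled GNACA, any 3 bases and TGTNC, in 0 (against 0.364% and 0.422%). A match is a description of these letters and no measure of binding. The 200 bases before the start are shown for 4 genes on which the results turn, with the matched NRF1 and ETS letters in capitals. Sdha (chr1:30764353-30764552, plus strand) and Ndufs1 (chr9:72073606-72073805, minus strand) were low in the injured cord, Atp5mc2 (chr7:135678219-135678418, minus strand) was low with MP in sham cord, and Ndufb3 (chr9:67623217-67623416, plus strand) was high with MP in sham cord and has none of the 6 motifs in the stretch shown.
Sdha: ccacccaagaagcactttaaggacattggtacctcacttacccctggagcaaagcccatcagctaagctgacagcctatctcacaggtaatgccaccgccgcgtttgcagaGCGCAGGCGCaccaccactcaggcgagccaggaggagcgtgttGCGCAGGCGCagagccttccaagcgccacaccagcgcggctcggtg
Ndufs1: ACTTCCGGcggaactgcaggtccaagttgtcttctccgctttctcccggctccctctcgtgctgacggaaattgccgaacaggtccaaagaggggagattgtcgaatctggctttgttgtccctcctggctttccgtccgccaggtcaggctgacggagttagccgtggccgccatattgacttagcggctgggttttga
Atp5mc2: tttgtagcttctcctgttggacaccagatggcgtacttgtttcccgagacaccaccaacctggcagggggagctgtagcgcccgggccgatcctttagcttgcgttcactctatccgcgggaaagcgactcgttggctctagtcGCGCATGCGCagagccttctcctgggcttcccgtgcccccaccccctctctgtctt
Ndufb3: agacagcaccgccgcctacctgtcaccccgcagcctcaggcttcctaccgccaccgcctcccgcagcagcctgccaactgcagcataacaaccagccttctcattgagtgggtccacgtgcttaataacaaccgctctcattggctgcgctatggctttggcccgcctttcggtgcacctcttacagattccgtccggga

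MP was compared with its vehicle within the injured and within the sham rats. In the injured cord, 39 of the 80 genes were lower and 9 higher in SCI-MP than in SCI-EtOH over 7 times, beside 42.1% of all genes called, 31.7% lower and 10.4% higher, with a median of -0.15 against -0.06 over all genes. The count of higher genes was 14 without SCI-EtOH 6 h replicate 2. After quantile normalization 30 were lower and 7 higher, beside 19.5% and 8.52% of all genes. In the sham cord, 11 were lower and 7 higher in S-MP than in S-EtOH, beside 9.85% of all genes called, 4.22% lower and 5.63% higher, with a median of -0.00 against 0.00. The 7 became 4 without S-EtOH 2 h replicate 2 or without S-EtOH 6 h replicate 1, and the counts became 23 lower and 13 higher after quantile normalization (beside 13.4% and 16.5% of all genes) and 21 and 13 with array weights (10% and 14.1%).

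In the injured cord, complex I had 16 of 32 genes lower and 4 higher with MP, complex II 3 of 4 lower and 1 higher, complex III 5 of 7 lower and 2 higher, complex IV 5 of 15 lower and 1 higher, and ATP synthase 7 of 15 lower and 1 higher. Over all genes 31.7% were lower and 10.4% higher, and the counts of complex IV were near these shares. Uqcr11 had a lowest, median and highest value of -0.81, -0.35 and 0.04 in SCI-MP, against -0.20, 0.37 and 0.94 in SCI-EtOH. The groups overlapped in a narrow range, and the difference was -0.74 ± 0.07 (adjusted p = 2.2e-09). Atp5me was alike, at -0.78, -0.36 and 0.09 in SCI-MP against -0.25, 0.39 and 0.89 in SCI-EtOH, with a difference of -0.73 ± 0.09 (adjusted p = 9.5e-08). With the 0 h difference taken from the SCI-EtOH arrays, Uqcr11 stood at -0.26 (limma, adjusted p = 0.92) and Atp5me at -0.24 (adjusted p = 0.96). In that setting 1 of the 80 genes was lower with MP in injured cord and 0 were higher.

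Further genes of ATP synthase, complex IV and complex I were lower as well. Atp5mc3, one of the genes that encode the c subunit of the rotor ring, lay between -0.94 and -0.30 in SCI-MP, against -0.46 to 0.31 in SCI-EtOH, and differed by -0.53 ± 0.05. Atp5f1d, the delta subunit of F1, differed by -0.53 ± 0.06, Cox7c of complex IV by -0.49 ± 0.06, and Cox8a by -0.43 ± 0.05. In complex I, Ndufa11 was lower, at -0.52, and Ndufa10 at -0.50.

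The 9 genes that were higher with MP in the injured cord were Ndufs4, Ndufb6, Ndufb9, Ndufv2, Sdha, Uqcrb, Uqcrc2, Ndufa4 and Atp5f1e. Ndufs4, an accessory subunit that stabilises complex I, had a lowest, median and highest value of -0.48, 0.17 and 0.61 in SCI-MP, against -0.99, -0.48 and 0.04 in SCI-EtOH. Its groups overlapped, and the difference was 0.64 ± 0.12 (adjusted p = 5.3e-05). With the 0 h difference taken from the SCI-EtOH arrays, it stood at 0.20 (limma, adjusted p = 0.98). All 9 were among the genes lower in SCI-EtOH than in S-EtOH. Since both comparisons use the SCI-EtOH arrays, this is given as values only. The call of Uqcrc2 (0.18, adjusted p = 0.027) was lost when any of 6 single arrays was left out (adjusted p up to 0.0709), and those of Sdha and Uqcrc2 were lost after quantile normalization (adjusted p of 0.124 and 0.112).

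In the sham cord, 3 genes did not overlap between MP and vehicle, 2 below and 1 above, beside 0.0908% and 0.0349% of all genes. Atp5mc2, another c subunit gene, had a lowest, median and highest value of -0.37, -0.11 and 0.09 in S-MP, against 0.26, 0.45 and 0.72 in S-EtOH. It was lower, at -0.60 ± 0.05 (adjusted p = 5.4e-09), and its 2 probe sets gave -0.67 and -0.53. It passed the test at each of the 7 times, with -0.75 at 2 h and -0.56 at 48 h.

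Atp5mc2 was also lower with MP in the injured cord (-0.45 ± 0.05), where the arrays lay between -0.71 and 0.06 in SCI-MP and between -0.20 and 0.53 in SCI-EtOH. On the average of its 2 probe sets, the effect of MP did not differ detectably between injured and sham cord (difference of the differences 0.15 ± 0.08, adjusted p = 0.15). The probe sets disagreed here, at 0.29 (limma, adjusted p = 0.0020) and 0.002 (adjusted p = 0.99). In SCI-EtOH against S-EtOH the 2 probe sets also disagreed in size, at -0.58 and -0.06.

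Sdhc lay between -0.24 and 0.19 in S-MP, against 0.22 to 0.49 in S-EtOH, and was lower, at -0.35 ± 0.05 (adjusted p = 2.4e-05). With MP in the injured cord it was lower, at -0.33 ± 0.05, and the 2 differences differed by 0.03 ± 0.07. Ndufb3, an accessory subunit of the membrane arm, lay between 0.09 and 0.49 in S-MP, against -0.57 to 0.00 in S-EtOH, and was higher by 0.56 ± 0.06 (adjusted p = 4.2e-08). In the injured cord it was lower with MP, at -0.77 to 0.11 in SCI-MP against -0.28 to 0.29 in SCI-EtOH and a difference of -0.25 ± 0.06. With the 0 h difference taken from the SCI-EtOH arrays, that difference was 0.18 (limma, adjusted p = 0.94). Other genes past the test in sham cord changed by between -0.28 (Ndufb9) and 0.27 (Ndufa8), and the calls of Uqcrq (-0.23) and Cox4i1 (0.20) were lost when any of 14 and any of 15 single arrays was left out (adjusted p up to 0.0937 and 0.0793).

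The effect of MP in injured cord minus that in sham cord, which equals the effect of injury with MP minus that with ethanol, passed the test in 39 genes, 32 of them negative and 7 positive, beside 25.7% of all genes, 20.2% negative and 5.45% positive. The median was -0.15 against -0.06 over all genes. Over all genes 780 were positive and 2897 negative, against 1107 and 2437 after quantile normalization, which gave 10 positive and 23 negative among the 80 genes. The smallest adjusted p-values were those of Ndufb3 (-0.82 ± 0.08, adjusted p = 2.6e-08), Uqcr11 (-0.64 ± 0.10, adjusted p = 3.7e-05) and Atp5me (-0.76 ± 0.13, adjusted p = 5.3e-05), and the largest positive value was that of Atp5f1e (0.77 ± 0.19, adjusted p = 0.0034). With the 0 h difference taken from the SCI-EtOH arrays, 0 of the 80 genes and 0 of all genes passed this contrast.

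At 0 h, when no rats given MP were taken, the SCI-EtOH and S-EtOH rats showed differences in these genes that a test on 2 against 2 rats did not call. Of the 80 genes 0 were called by limma, beside 0.0419% of all genes (0.0279% higher and 0.014% lower), while 8 were higher and 8 lower at an unadjusted p under 0.05, beside 9.16% and 2.59% of all genes. Array weights gave 8 higher and 7 lower, beside 9.45% and 2.65% of all genes. A fit of the arrays compared alone gave 9 and 5, for which no share of all genes is given here. The largest differences were 0.52 (Ndufaf3, an assembly factor of complex I), 0.50 (Atp5me), 0.48 (Uqcr11), -0.54 (Ndufa4) and -0.50 (Ndufb6), and these genes were picked after their values were seen. The 4 erythrocyte markers had a median difference of 1.45 at 0 h, with 0 of 4 called, and their part in these values was not tested.

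Across the 80 genes, the difference at 0 h correlated with later differences that use none of the 0 h arrays. Pearson's r was 0.71 with SCI-EtOH minus S-EtOH over 2 to 48 h, -0.66 with SCI-MP minus SCI-EtOH, -0.82 with the effect of MP in injured minus sham cord, 0.35 with S-MP minus S-EtOH and -0.00 with SCI-MP minus S-MP. Over all 14324 genes the same values were 0.38, -0.49, -0.59, 0.20 and 0.10. These are descriptions across genes, which are not independent, and the 0 h values rest on 4 arrays. All 9 genes that were higher in SCI-MP than in SCI-EtOH had a negative difference at 0 h, and of the 39 that were lower 28 had a positive one.

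With the 0 h difference subtracted, 8 of the 80 genes were lower in SCI-EtOH than S-EtOH and 0 higher, beside 9.15% and 3.24% of all genes (12.4% in either direction), so that the share of lower genes (10%) was near that of all genes. In all, 7 of the 14 higher and 2 of the 42 lower genes turned sign. The 8 were Sdha (-0.56), Ndufs8 (-0.45), Ndufv1 (-0.69), Atp5f1a (-0.60), Ndufa8 (-0.45), Atp5f1b (-0.35), Ndufs7 (-0.49) and Atp5f1d (-0.59). At an unadjusted p under 0.05 these were 18 lower and 1 higher, beside 17.1% and 7.31% of all genes. For SCI-MP against SCI-EtOH the 0 h difference could be taken from the SCI-EtOH arrays alone, which adds it to the difference and leaves SCI-MP as it was, since no MP rats were taken at 0 h. There 1 gene was lower, Atp5mc2 (-0.82, adjusted p = 0.013), and 0 were higher, beside 0.0559% of all genes (8 lower and 1 higher unadjusted, beside 4.01% and 2.81%), and 5 of the 9 higher and 6 of the 39 lower genes turned sign. By construction this setting adds the error of 4 arrays at 0 h to every value. For Atp5mc2 the 2 probe sets disagreed at 0 h, at -0.72 (limma over probe sets, adjusted p = 0.0026) and -0.03 (adjusted p = 0.97). The medians of the 80 genes were -0.17 and -0.11.

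**Figure D4:**
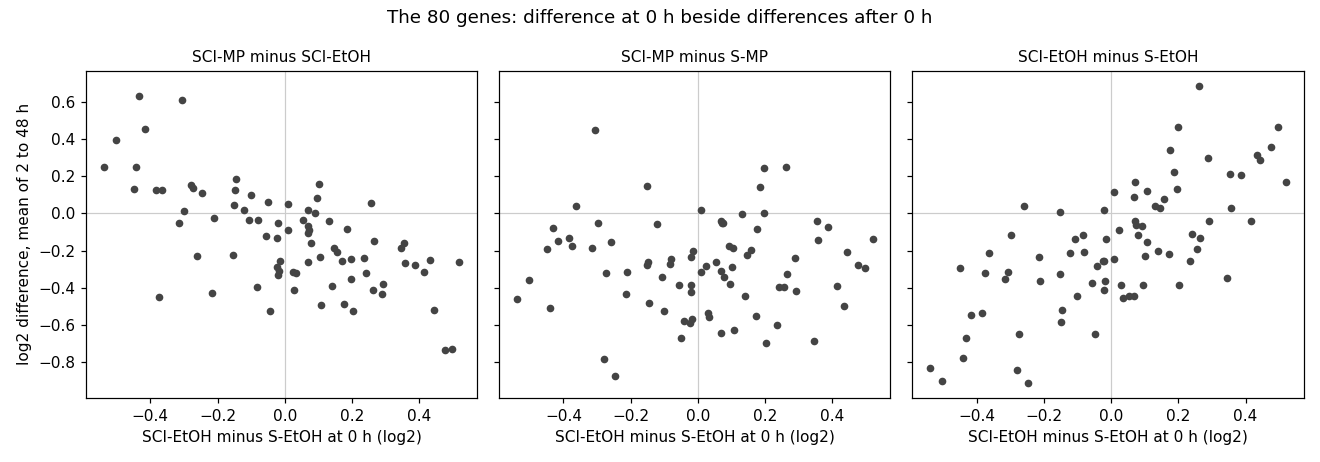
Log2 difference of SCI-EtOH minus S-EtOH at 0 h (horizontal axis) against the log2 difference over 2 to 48 h (vertical axis) in 3 comparisons, 1 point for each of the 80 genes. The points fall with SCI-MP minus SCI-EtOH (r = -0.66), show no slope with SCI-MP minus S-MP (r = -0.00) and rise with SCI-EtOH minus S-EtOH (r = 0.71).

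Time by time, the genes were tested by a moderated F test over the 4 groups followed by Tukey's range. In SCI-EtOH against S-EtOH, 13 genes were lower and 1 higher at 2 h, beside 3.33% and 2.92% of all genes. The same counts were 21 and 2 at 4 h (9.42% and 5.78%), 17 and 9 at 6 h (6.83% and 6.6%), 20 and 2 at 8 h (10.6% and 10.1%), 27 and 3 at 12 h (15.8% and 11.7%), 11 and 6 at 24 h (16.2% and 16.1%) and 9 and 1 at 48 h (15% and 15.9%). The order of the times rested on single arrays, since without SCI-EtOH replicate 2 the total at 6 h was 39, above the 30 at 12 h, and after quantile normalization the total was 25 at 4 h, 22 at 12 h and 12 at 8 h. Of the 80 genes, 34 had a negative difference at all 7 times and 9 a positive one. The share of all genes that did so was not computed, so these counts are a description only. Leaving out 1 array moved the total of genes called by over 1.5 times for each array at 2 h (5 to 9) and 24 h (8 to 11), each but SCI-EtOH replicate 1 at 4 h (10 to 15), each but SCI-EtOH replicate 2 at 6 h (11 to 13), SCI-EtOH replicate 2 (12) and S-EtOH replicate 1 (14) at 8 h, S-EtOH replicate 2 at 12 h (19) and SCI-EtOH replicate 2 at 48 h (5).

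With MP in the injured cord, 10 genes were lower and 1 higher at 2 h, beside 4.56% and 0.531% of all genes. The same counts were 7 and 0 at 4 h (5.42% and 0.524%), 31 and 0 at 6 h (10.9% and 2.31%), 3 and 4 at 8 h (6.11% and 3.57%), 15 and 3 at 12 h (9.59% and 6.92%), 18 and 1 at 24 h (7.5% and 1.76%) and 1 and 0 at 48 h (5.39% and 1.45%). After quantile normalization the counts were 15 lower and 0 higher at 6 h, 0 and 1 at 12 h, 3 and 0 at 24 h and 0 and 0 at 48 h, with 5.12%, 2.56%, 1.16% and 0.342% of all genes lower. At 8 h the median difference of the 80 genes was -0.01, against -0.39 at 6 h and -0.24 at 12 h. The 6 h count stands beside the pair of SCI-EtOH rats that were least alike, and the part of that pair in the count was not tested beyond leaving out its rats, which did not move it by over 1.5 times. The total moved by over 1.5 times without each array but SCI-MP replicate 2 at 2 h (3 to 5) and at 48 h (0 to 4), without SCI-EtOH replicate 1 (2) or 2 (14) at 4 h, without SCI-MP replicate 2 at 6 h (17), and without each but SCI-EtOH replicate 1 at 8 h (3), 12 h (7 to 11) and 24 h (8 to 11).

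With MP in the sham cord, 7 genes were lower and 0 higher at 2 h, beside 0.649% and 0.188% of all genes. The same counts were 2 and 0 at 4 h (0.684% and 0.293%), 1 and 1 at 6 h (1.08% and 2.08%), 1 and 2 at 8 h (1.74% and 3.85%), 1 and 2 at 12 h (1.96% and 1.48%), 7 and 0 at 24 h (1.01% and 0.0559%) and 1 and 1 at 48 h (0.251% and 0.195%). The total moved by over 1.5 times without each array but S-MP replicate 2 at 2 h (1 to 4), S-MP replicate 1 at 4 h (1), 6 h (4) and 12 h (5), S-MP replicate 2 at 6 h (1), S-EtOH replicate 2 at 8 h (1), S-EtOH replicate 2 or S-MP replicate 1 (2) and S-MP replicate 2 (12) at 24 h, and either S-EtOH array at 48 h (1).

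**Figure D5:**
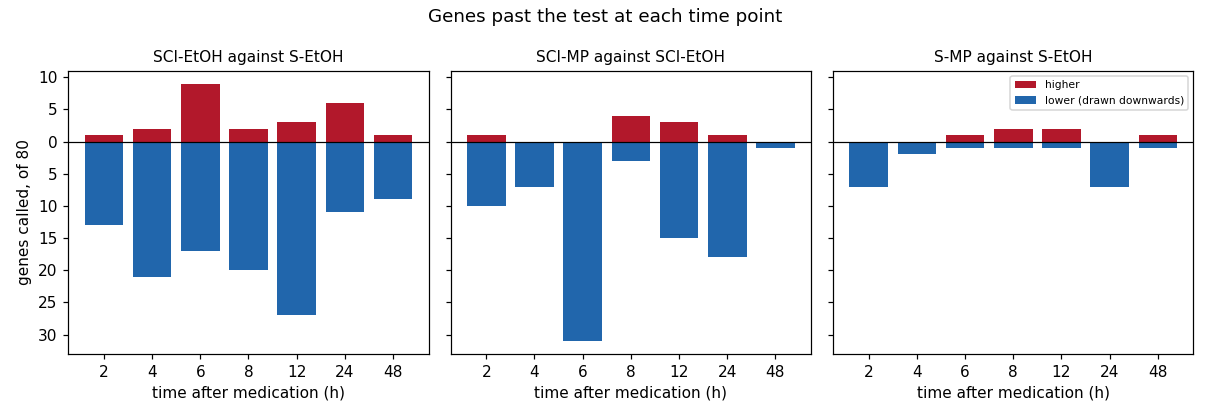
Number of the 80 genes past the test at each time point (horizontal axis, h after medication) in 3 comparisons, with higher genes drawn upwards and lower genes downwards from 0. In SCI-EtOH against S-EtOH 27 lower genes are drawn at 12 h, and in SCI-MP against SCI-EtOH 31 at 6 h.

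Between early (2 to 6 h) and late (24 and 48 h) times, the injury difference with ethanol changed in 6 of the 80 genes, 5 positive and 1 negative, beside 31.4% of all genes, 16.7% positive and 14.8% negative, with a median change of 0.00 in both. After quantile normalization 2 were positive and 0 negative, and the share of all genes was 5.61% positive and 6.95% negative. Cox5a, a complex IV subunit on the matrix side, was lower in SCI-EtOH at 2 h (-0.56), 4 h (-0.66), 6 h (-0.37), 8 h (-0.38) and 12 h (-0.48), and stood at -0.01 at 24 h and -0.09 at 48 h (late minus early 0.48 ± 0.10, adjusted p = 3.1e-04). Sdha went the other way, at -0.55 at 2 h, -0.85 at 4 h, -0.60 at 6 h, -1.04 at 24 h and -1.12 at 48 h (late minus early -0.42 ± 0.12, adjusted p = 0.0080). Atp5mc2, Atp5mc3, Uqcrfs1 (the Rieske iron-sulfur protein of complex III) and Ndufaf4 were the others, between 0.36 and 0.43. The call of Atp5mc2 was lost without S-EtOH 24 h or 48 h replicate 1 (adjusted p of 0.0511 and 0.0546), and those of Sdha and Atp5mc2 after quantile normalization (adjusted p of 0.441 and 0.127). The 5 positive changes were 9 without SCI-EtOH 6 h replicate 2, 3 without SCI-EtOH 24 h or 48 h replicate 2, 2 without S-EtOH 24 h replicate 1 and 1 without S-EtOH 48 h replicate 1. The 1 negative change was 2 without SCI-EtOH 2 h replicate 1, 6 h replicate 1 or 24 h replicate 2 or S-EtOH 6 h replicate 2, 4 without SCI-EtOH 4 h replicate 2 or 48 h replicate 1, and 7 without SCI-EtOH 6 h replicate 2. For the effect of MP, 0 genes changed by limma in injured cord (5 higher and 0 lower at an unadjusted p under 0.05, median 0.13, 0.559% of all genes called, 0.209% higher and 0.349% lower, and 1 higher without SCI-EtOH 6 h replicate 2) and 0 in sham cord (0 and 1 unadjusted, 0.014% of all genes called).

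The subunits did not move as 1 block. Over the 60 arrays, the 2628 pairs of subunits had a median Pearson's r of 0.44, from -0.73 to 0.92, as a description in which all pairs share arrays. The genes outside the list whose 60 values were most like the mean of the 80 were Suclg1 (r = 0.918), Mien1 (0.909), Ndfip1 (0.908), Ecsit (0.907) and Atp6v0b (0.896).

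Other mitochondrial genes were counted in the same fit. Over all genes, injury gave 33.3% lower and 21.7% higher with MP, and 27.5% and 35.1% with ethanol. MP in sham cord gave 4.22% lower and 5.63% higher. Of 16 measured genes of the TCA cycle and pyruvate dehydrogenase, 15 were lower and 0 higher in SCI-MP than in S-MP (median -0.58), and 14 lower and 1 higher in SCI-EtOH than S-EtOH (median -0.49), while with MP 6 were lower and 0 higher in injured cord (beside 31.7% of all genes lower and 10.4% higher) and 2 lower and 0 higher in sham cord. Pdhb, a subunit of pyruvate dehydrogenase, had the largest change, at -0.86 ± 0.07 and -0.66 ± 0.07. Of 13 mitochondrial carriers and pores, 11 were lower and 1 higher with MP and 10 lower and 1 higher with ethanol, and the higher one was Ucp2, an uncoupling protein also found in immune cells (0.99 ± 0.08 and 1.08 ± 0.08). Of 11 electron carriers and ubiquinone synthesis genes, 7 were lower and 0 higher with MP and 3 lower and 1 higher with ethanol. Cycs, which encodes cytochrome c, was lower with ethanol (-0.55 ± 0.07).

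Among 17 genes of mitochondrial biogenesis, 9 were lower and 4 higher with MP and 7 lower and 5 higher with ethanol. Ppargc1a, a coactivator that drives mitochondrial gene expression, was lower at -0.97 ± 0.06 and -0.74 ± 0.06, and was higher with MP in sham cord (0.28 ± 0.06, adjusted p = 0.0018). Of 23 genes of assembly and protein import, 17 were lower and 0 higher with MP and 8 lower and 4 higher with ethanol, led by Atpaf1, an assembly factor of ATP synthase (-0.91 ± 0.06 and -0.74 ± 0.06). Of 51 mitochondrial ribosomal proteins, 29 were lower and 1 higher with MP and 19 lower and 9 higher with ethanol, at medians of -0.14 and -0.04.

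Markers of cell types moved with the injury comparisons. Over all genes 33.3% were lower and 21.7% higher with MP, and 27.5% and 35.1% with ethanol. All 13 neuron markers were lower in both (median -1.32 with MP and -1.49 with ethanol), led by Nefm, a neurofilament (-2.14 ± 0.16 and -2.70 ± 0.16). Of 8 astrocyte markers 7 and 8 were lower, and of 11 oligodendrocyte markers 7 and 9 were lower with 1 higher in each. Of 8 neutrophil markers 7 and 7 were higher (median 0.71 and 1.29), of 11 microglia and macrophage markers 6 and 7 were higher with 3 and 0 lower, of 7 endothelial markers 4 and 6 were higher with 2 and 0 lower, and all 4 erythrocyte markers were higher in both. The mean of the 8 neutrophil markers ran from -0.22 to 1.82 in SCI-MP and from -0.11 to 2.20 in SCI-EtOH, against -0.31 to 0.15 in S-MP and -0.31 to 0.21 in S-EtOH. The part of these markers in the values of the respiratory chain was not tested. From early to late times in SCI-EtOH against S-EtOH, 9 of 13 neuron, 7 of 8 astrocyte and 10 of 11 oligodendrocyte markers changed downwards, beside 14.8% of all genes. Their medians were -1.37, -0.90 and -0.81. Of 8 neutrophil markers 6 changed upwards (median 1.45), beside 16.7% of all genes. Of 11 microglia and macrophage markers 3 changed upwards and 3 downwards, and 3 of 7 endothelial markers changed downwards. Their relation to the changes of the 80 genes was not tested.

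With MP in the injured cord, 2 of 13 neuron markers were higher and 2 lower (median 0.09), and 6 of 8 neutrophil markers were lower (median -0.63), led by Mmp8 (-0.88 ± 0.13). Of the other types, 5 of 11 microglia and macrophage markers were lower and 1 higher, 4 of 11 oligodendrocyte markers higher and 2 lower, 2 of 7 endothelial markers lower, 1 of 8 astrocyte markers lower and 2 of 4 erythrocyte markers lower (median -0.37). Over all genes 31.7% were lower and 10.4% higher, so that the lower neuron, endothelial and astrocyte counts were near or below that share. The part of these markers in the difference between SCI-MP and SCI-EtOH was not tested. In sham cord 0 neuron, 0 neutrophil and 0 microglia markers were called by limma, 1 oligodendrocyte and 1 astrocyte marker were lower, 1 endothelial marker was higher and 1 lower, and 3 of 4 erythrocyte markers were lower with MP (median -0.81). Over all genes 4.22% were lower and 5.63% higher in sham cord. The part of these markers in the lower values of Atp5mc2 and Sdhc and the higher value of Ndufb3 was not tested.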

How the data were processed

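The authors hybridised RNA of 60 rats to Rat Gene 1.0 ST arrays, summarised the probes by RMA and normalised each chip and each gene with the software GeneSpring GX 11. They deposited log2 values for 27342 probe sets; the genome build and what each probe set was centred on are not given in the sources used here. All 60 columns were matched to rats by their labels. Probe sets with a coefficient of variation of duplicates under 50% in at least 16 of 30 pairs were kept (27338). The paper's filter with the same limits kept fewer. Names came from the platform annotation, updated through the gene ID (15067 of 15097 single-symbol probe sets matched; 323 had several symbols and 11922 none). Probe sets of a gene were averaged, and near-identical copies, which can bind the same probes, were not told apart.

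limma 3.58.1 in R 4.3.3 fitted 1 mean for each group and time over all arrays, with Benjamini-Hochberg adjustment over 14324 genes at 0.05, with moderated variances because pairs of rats leave the methods' analysis of variance few degrees of freedom. Contrasts were means over 7 times; single times used a moderated F test and Tukey's range. The scripts were tested on simulated data. Values hold no brightness, so no filter on dim probe sets was possible, and the number of arrays limits the precision.

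The members and lists were chosen with earlier results of these data known. Named with values are, per contrast and complex, the 2 largest rises and falls past the test or else the smallest adjusted p, the 3 smallest adjusted p of the interaction and late minus early contrasts, all of complex II, isoform pairs, and the largest change of each list; the text leaves out some for length. All genes past the interaction test and those whose sign turned with the 0 h difference were named after their values were seen. Alternatives were quantile normalization, array medians set to 0, array weights, no noise filter, probe sets not averaged, only the arrays compared, a block for the duplicate number, no 6 h arrays, the plain analysis of the methods, subunits only, the 0 h difference taken into account (for the interaction, added after the data were seen) and leaving out each array.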

Additional observations from a re-analysis of the deposited data

Results flagged for a closer look

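The injury difference of SCI-EtOH minus S-EtOH differed between late and early times, by a limma contrast of the difference itself, in Cox5a (0.48), Sdha (-0.42), Atp5mc2 (0.42), Atp5mc3 (0.36), Ndufaf4 (0.37) and Uqcrfs1 (0.43).

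The effect of MP differed between injured and sham cord, by the limma contrast of the difference, in 39 of the 80 genes. It was more negative in injured cord for Ndufb3 (-0.82), Uqcr11 (-0.64), Atp5me (-0.76), Ndufa11 (-0.50), Ndufa1 (-0.44), Ndufb7 (-0.54), Ndufv1 (-0.34), Cox7c (-0.42), Ndufaf3 (-0.31), Ndufs8 (-0.35), Atp5mc3 (-0.30), Sdhb (-0.34), Ndufs3 (-0.35), Atp5f1d (-0.32), Ndufa10 (-0.47), Sdhd (-0.37), Ndufa7 (-0.31), Atp5f1b (-0.20), Atp5mc1 (-0.20), Ndufa5 (-0.33), Ndufs6-ps1 (-0.28), Ndufb10 (-0.27), Cox6a1 (-0.24), Atp5mg (-0.28), Atp5pb (-0.23), Cox8b (-0.22), Cox8a (-0.20), Cox4i1 (-0.25), Ndufb8 (-0.28), Ndufa2 (-0.26), Ndufa8 (-0.21) and Cox6c (-0.20). It was more positive in injured cord for Ndufb9 (0.40), Ndufa4 (0.38), Atp5f1e (0.77), Uqcrb (0.40), Ndufb6 (0.54), Ndufs4 (0.60) and Ndufb4 (0.33). With the 0 h difference taken from the SCI-EtOH arrays, 0 of the 80 genes passed this contrast by limma (6 negative and 0 positive at an unadjusted p under 0.05, beside 1.8% and 1.34% of all genes).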

How the results depend on the processing

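Counts of the 80 genes over 7 times, and the late minus early counts, stayed within 1.5 times with array medians set to 0, without the noise filter, without the 6 h arrays and with subunits only. The 0 h difference taken into account changed most: SCI-EtOH against S-EtOH had 0 higher and 8 lower, SCI-MP against SCI-EtOH 0 and 1, and the interaction 0 and 0. In the first it turned the sign of 7 of the 14 higher genes, Atp5me (-0.029), Atp5mg (-0.18), Ndufa2 (-0.14), Ndufa11 (-0.15), Ndufaf3 (-0.35), Ndufb3 (-0.12) and Uqcr11 (-0.12), and of 2 of the 42 lower genes, Atp5mc2 (0.05) and Atp5pf (0.16). In the second it turned 5 of the 9 higher genes, Ndufa4 (-0.29), Ndufb6 (-0.11), Ndufb9 (-0.26), Ndufv2 (-0.19) and Sdha (-0.13), and 6 of the 39 lower genes, Ndufaf3 (0.26), Ndufb3 (0.18), Atp5mg (0.11), Ndufs8 (0.10), Ndufv1 (0.16) and Uqcrh (0.089). In the interaction it turned 2 of the 7 positive and 6 of the 32 negative genes. Array weights gave 8 higher and 7 lower at 0 h (beside 9.45% and 2.65% of all genes), 3 higher for late minus early in SCI-EtOH against S-EtOH, and 13 higher and 21 lower in S-MP against S-EtOH. Only the arrays compared gave 9 and 5 at 0 h and 3 and 2 for late minus early, and probe sets not averaged gave 1 and 2 at 0 h. Quantile normalization gave 3 and 3 at 0 h (beside 1.24% and 0.775% of all genes), 2 and 0 for late minus early, and 13 and 23 in S-MP against S-EtOH. Per time it gave 12 for SCI-EtOH against S-EtOH at 8 h, 15, 1, 3 and 0 for SCI-MP against SCI-EtOH at 6, 12, 24 and 48 h, and 11, 5, 8, 9, 10, 13 and 10 for S-MP against S-EtOH. The plain analysis of the methods, with fewer degrees of freedom, gave 0, 0, 2, 5, 15 and 5 at 2 to 24 h, 0, 0, 1, 2, 5, 3 and 5 at 2 to 48 h, and 0, 0, 0, 0 and 2 at 2, 4, 6, 12 and 24 h in these 3 comparisons. Over all genes, array medians set to 0 gave 4 higher and 4 lower at 0 h, against 4 and 2, and 8 and 69 for late minus early in SCI-MP against SCI-EtOH, against 30 and 50; quantile normalization gave 7 and 23 for it in S-MP against S-EtOH, against 0 and 2. The cause was not tested for the other changes.

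The duplicate numbers did not pair the rats: deviations of same-numbered arrays over 435 pairs of groups correlated at a median of 0.01, from -0.57 to 0.54. With the replicate block, 4 genes passed in SCI-MP against SCI-EtOH at 48 h and 11 in S-MP against S-EtOH at 24 h, and no other count moved by over 1.5 times.

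Leaving out 1 array, the counts ranged over 13 to 17 higher and 41 to 46 lower (SCI-EtOH against S-EtOH), 4 to 5 and 53 to 61 (SCI-MP against S-MP), 7 to 14 and 38 to 42 (SCI-MP against SCI-EtOH), 4 to 8 and 10 to 14 (S-MP against S-EtOH), 6 to 9 and 25 to 33 (interaction), 1 to 9 and 1 to 7 (late minus early in SCI-EtOH against S-EtOH) and 0 to 1 higher (the same in SCI-MP against SCI-EtOH). At the 7 times in order they ranged over 5 to 9, 10 to 25, 11 to 39, 12 to 17, 19 to 30, 8 to 11 and 5 to 13 for SCI-EtOH against S-EtOH, 3 to 10, 2 to 14, 17 to 32, 3 to 7, 7 to 22, 8 to 13 and 0 to 4 for SCI-MP against SCI-EtOH, and 1 to 8, 1 to 2, 1 to 4, 1 to 4, 2 to 5, 2 to 12 and 1 to 3 for S-MP against S-EtOH. Of the named genes, a single array changed the call of Uqcrq, Cox4i1 and Ndufaf1 (S-MP against S-EtOH), Cox4i2 (SCI-MP against S-MP), Uqcrc2 (SCI-MP against SCI-EtOH) and, between late and early, Atp5mc2 and Cox8a. With 2 rats per group and no scale above background, differences of single times are the least certain.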
